A study of Homo sapiens with 12 samples.

Results

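CIN85, the protein of SH3KBP1, and the genes of 9 proteins that act with it in receptor endocytosis were followed in RNA-seq libraries of HOS cells. The 10 genes, SH3KBP1, CD2AP, GRB2, CBL, CBLB, UBASH3B, SH3GL1, PDCD6IP, ASAP1 and ARAP1, were chosen by name, with earlier results of these data known. They are 10 of the 25141 genes in the deposited count table, where each was found through its Ensembl identifier. All 10 passed the filter on low counts, which kept 12542 genes.

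HOS is an established human osteosarcoma cell line. It was measured in 4 groups of 3 libraries. The Mock group was a geneticin-resistant pool that carried the empty vector. The upCIN85 group was a geneticin-resistant pool, not a single clone, that carried the plasmid pRc/CMV2-Rukl for full-length CIN85 behind a CMV promoter. The siNeg group received a non-targeting siRNA, and the siCIN85 group received a mix of siRNAs against CIN85. The libraries read the 3′ ends of transcripts, and their total counts lay between 3540641 and 6049458. The labels number the replicates without saying that they were separate cultures. The study's methods speak of biological replicates in general and do not describe those of the sequencing, so P-values measure the spread between these libraries, which may be technical.

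CIN85 is an adaptor with SH3 domains that bind proline-rich motifs. When a receptor tyrosine kinase is activated, the ubiquitin ligase CBL binds and ubiquitinates it, and CIN85 links CBL to endophilin, which bends the membrane for uptake. The ubiquitinated receptor is then sorted at the endosome towards the lysosome. CD2AP is the paralog of CIN85, with the same order of SH3 domains and many of the same ligands, and it joins membrane traffic to actin.

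Reading 3′ ends gives about 1 tag per transcript whatever its length, so levels are given as CPM, counts scaled to library size with TMM factors, with no division by length. Changes are given as log2FC, the log2 fold change, with its standard error (SE) from edgeR's quasi-likelihood fit, and P-values were adjusted over all 12542 genes. In bulk libraries, fewer cells that hold a transcript and less of it per cell cannot be told apart.

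The 2 paralogs lie on different chromosomes. SH3KBP1 (ENSG00000147010) spans chrX:19533975-19887601 on the minus strand of GRCh38 and has 7 coding transcripts with 7 different 3′ ends in the GENCODE annotation. CD2AP (ENSG00000198087) spans chr6:47477789-47627263 on the plus strand, with 1 coding transcript. The 250 bases before a RefSeq start are shown for both paralogs, and for ARAP1 because it was the partner with the lowest log2FC under the plasmid. The windows are from RefSeq on GRCh38.p14, each printed 5′ to 3′ on the strand of its gene, and 8 of the 10 genes had one in the table used. Capitals mark, on either strand, the letters GGGCGG for the GC box, CCAAT for the box that NF-Y binds, TATAAA for the TATA box, CCGGAA for the ETS core and TGACGTCA for the cyclic AMP response element (CRE).

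SH3KBP1, the first of 4 listed starts, chrX:19833152-19833401, minus strand: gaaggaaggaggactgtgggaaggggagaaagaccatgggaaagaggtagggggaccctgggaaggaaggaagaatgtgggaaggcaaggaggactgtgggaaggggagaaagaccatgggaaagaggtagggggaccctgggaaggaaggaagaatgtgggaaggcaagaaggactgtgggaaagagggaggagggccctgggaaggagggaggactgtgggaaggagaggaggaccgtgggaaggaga
CD2AP, its listed start, chr6:47477539-47477788, plus strand: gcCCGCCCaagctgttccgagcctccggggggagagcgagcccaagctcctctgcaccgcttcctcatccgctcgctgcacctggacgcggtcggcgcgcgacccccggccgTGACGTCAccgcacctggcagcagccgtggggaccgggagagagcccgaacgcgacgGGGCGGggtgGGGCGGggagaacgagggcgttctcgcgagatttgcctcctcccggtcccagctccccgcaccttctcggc
ARAP1, its listed start, chr11:72722341-72722590, minus strand: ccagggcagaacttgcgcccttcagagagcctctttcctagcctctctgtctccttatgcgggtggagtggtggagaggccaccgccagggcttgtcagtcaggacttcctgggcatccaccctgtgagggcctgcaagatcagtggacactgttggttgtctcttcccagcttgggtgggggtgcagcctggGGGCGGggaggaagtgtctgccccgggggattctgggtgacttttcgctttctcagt

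The SH3KBP1 window shown is a purine-rich repeat and held none of the 5 motifs. It lies inside the annotated gene span, whereas the CD2AP window ends at the start of its gene, so they are not matched in position. The windows of SH3KBP1 starts 3 and 4 each held 1 NF-Y box. The CD2AP window held 3 GC boxes and 1 CRE, and 34 of its bases lie in exons of the neighbouring AL355353.1. The ARAP1 window held 1 GC box, and 18 of its bases lie in ARAP1 exons of other transcripts. Among 35116 windows of the same length outside chromosome 8, 42.6% held a GC box, 32.0% the NF-Y box, 10.7% the TATA box, 14.5% the ETS core and 1.65% the CRE. A match is a description of these letters only.

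SH3KBP1, the target of both the plasmid and the siRNAs, was examined first because it checks the labels. In the siRNA libraries the fall was large and present in each replicate. SH3KBP1 stood at 85.5, 87.2 and 82.6 CPM in siNeg replicates 1, 2 and 3. It stood at 3.88, 8.96 and 9.77 CPM in siCIN85 replicates 1, 2 and 3, from 16, 31 and 37 counts. The groups did not overlap, and siCIN85 replicate 1 was the lowest library. SH3KBP1 fell by 3.51 on the log2 scale (SE 0.21, n = 3 libraries per group, edgeR adjusted P = 5.09e-08), a change of -91.2% with a 95% interval from -93.5% to -88.1%.

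No rise of SH3KBP1 was seen in the libraries labelled upCIN85. Its level was 76.6, 82.8 and 73.0 CPM in Mock and 71.0, 90.0 and 82.8 CPM in upCIN85, and the groups overlapped. The log2FC was 0.07 (SE 0.16, edgeR adjusted P = 0.887), with a 95% interval from -0.26 to 0.40. Without upCIN85 replicate 2 the log2FC was -0.01. The interval bounds a rise in counted SH3KBP1 tags at 1.32-fold. A plasmid transcript ends at the vector's own polyadenylation site, and whether such 3′ tags were counted under SH3KBP1 cannot be told from the counts. These counts therefore do not check the plasmid. The study reports that the full-length CIN85 isoform was overexpressed in these HOS cells. It shows and quantifies the protein by western blotting, which was not analysed here. Below, upCIN85 is the name of the labelled group, and "under the plasmid" stands for the comparison of upCIN85 with Mock and "under the siRNAs" for that of siCIN85 with siNeg.

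Across the 4 groups, SH3KBP1 averaged 85.1 ± 2.37 CPM (SD, n = 3) in siNeg, 81.3 ± 9.61 in upCIN85, 77.5 ± 5.0 in Mock and 7.54 ± 3.19 in siCIN85. The first 3 of these did not differ beyond their spread in the tests made, since siNeg against Mock gave a log2FC of 0.14 (SE 0.16, edgeR adjusted P = 0.778).

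**Figure D1:**
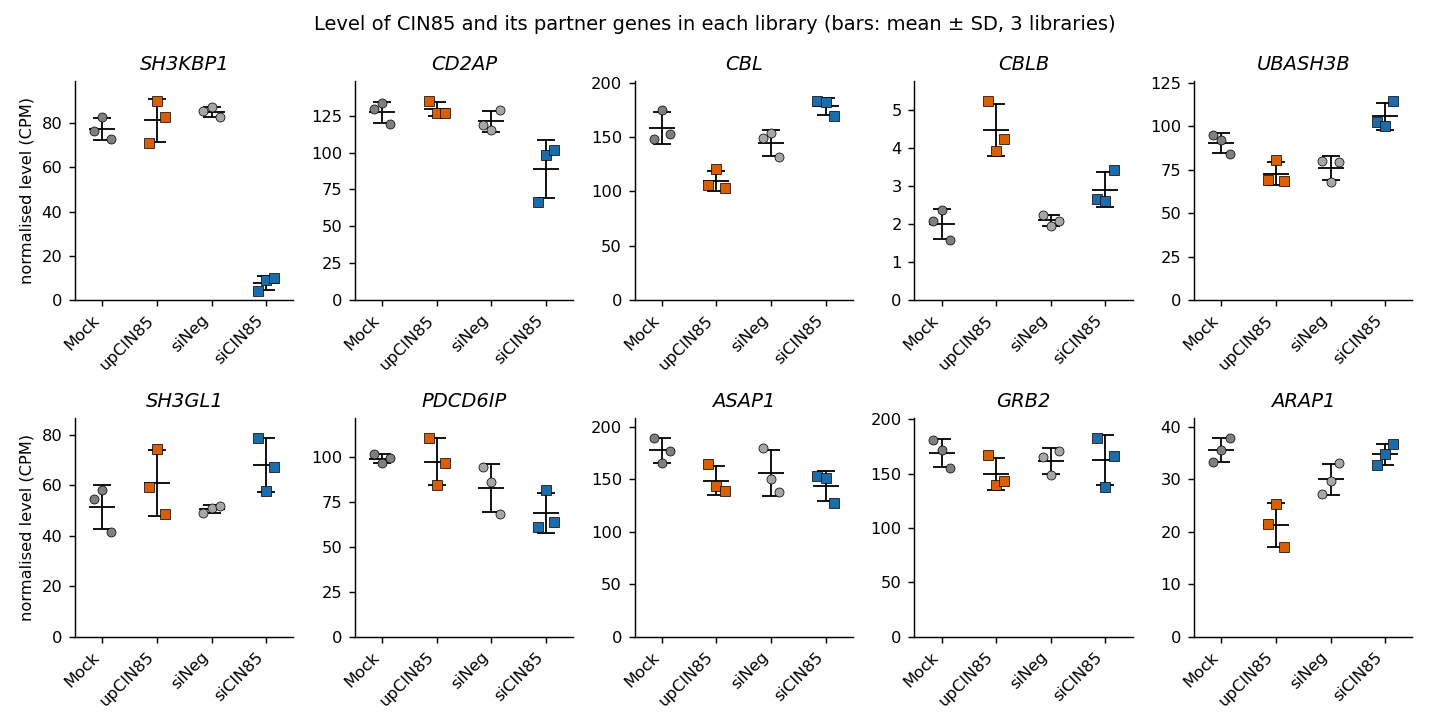
Level of each of the 10 genes in CPM (vertical axes, each from 0) in the 3 libraries of Mock, upCIN85, siNeg and siCIN85, with 1 panel per gene, points for libraries and bars for the mean ± SD. SH3KBP1 drops to between 3.88 and 9.77 CPM in siCIN85, CBL and ARAP1 sit lower in upCIN85 than in Mock, and CBLB stays at or below 5.25 CPM throughout.

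Whether the paralog rises when CIN85 is removed was asked next. CD2AP was not higher in siCIN85 than in siNeg; each siCIN85 library lay below each siNeg library. The siNeg libraries held 119, 116 and 129 CPM of CD2AP, and the siCIN85 libraries 66.3, 98.3 and 102 CPM. The group means were 121 ± 6.97 and 88.7 ± 19.6 CPM (SD, n = 3). The log2FC was -0.45 (SE 0.13, edgeR adjusted P = 0.109), which did not pass the threshold of 0.05. Its 95% interval ran from -0.73 to -0.17, or from -39.8% to -11.1%, so no rise lies within it.

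The lower CD2AP level leaned on siCIN85 replicate 1, the library with the deepest loss of SH3KBP1. That library kept 4.56% of the siNeg mean of SH3KBP1 and 54.7% of the siNeg mean of CD2AP. Replicates 2 and 3 kept 10.5% and 11.5% of SH3KBP1, and 81.2% and 84.0% of CD2AP. Without replicate 1 the log2FC of CD2AP was -0.28 (edgeR adjusted P = 0.373), with a 95% interval from -0.51 to -0.05.

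Deviations from the group mean were correlated between siNeg and siCIN85 libraries of one number (r from 0.269 to 0.446). For Mock and upCIN85 the values were 0.0989 to 0.326, so the ranges overlap, and the labels do not state pairs. On this ground, seen in these data, the siRNA libraries were also fitted in pairs, with the number as a replicate block. In it CD2AP passed the threshold and fell by 0.47 on the log2 scale (95% interval from -0.71 to -0.22, edgeR adjusted P = 0.0334). Over all alternative settings the adjusted P of CD2AP ranged from 0.0114 to 0.373, and the log2FC from -0.57 to -0.28. The sequences of the siRNAs were not used here, and a direct effect of the siRNAs on the CD2AP transcript was not tested.

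With the plasmid, CD2AP stayed within the spread of the libraries. It stood at 129, 133 and 119.6 CPM in Mock and at 135, 127 and 127 CPM in upCIN85, and the groups overlapped. The log2FC was 0.02 (SE 0.13, 95% interval from -0.25 to 0.29, edgeR adjusted P = 0.955), and its sign turned without Mock replicate 3 or without upCIN85 replicate 1. The change in CD2AP under the siRNAs minus that under the plasmid was -0.47 (SE 0.18, edgeR adjusted P = 0.240), which is not past the threshold.

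Added together, the tags of both adaptors were 206 ± 4.65 CPM in siNeg and 96.3 ± 22.7 CPM in siCIN85 (SD, n = 3), with single siCIN85 libraries between 70.1 and 111 CPM. In Mock and upCIN85 the sums were 205 ± 11.9 and 211 ± 5.73 CPM. The share of CD2AP in this sum was 58.7% ± 2.04 in siNeg and 92.4% ± 1.76 in siCIN85. The larger share of CD2AP thus came with fewer tags of both genes.

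**Figure D2:**
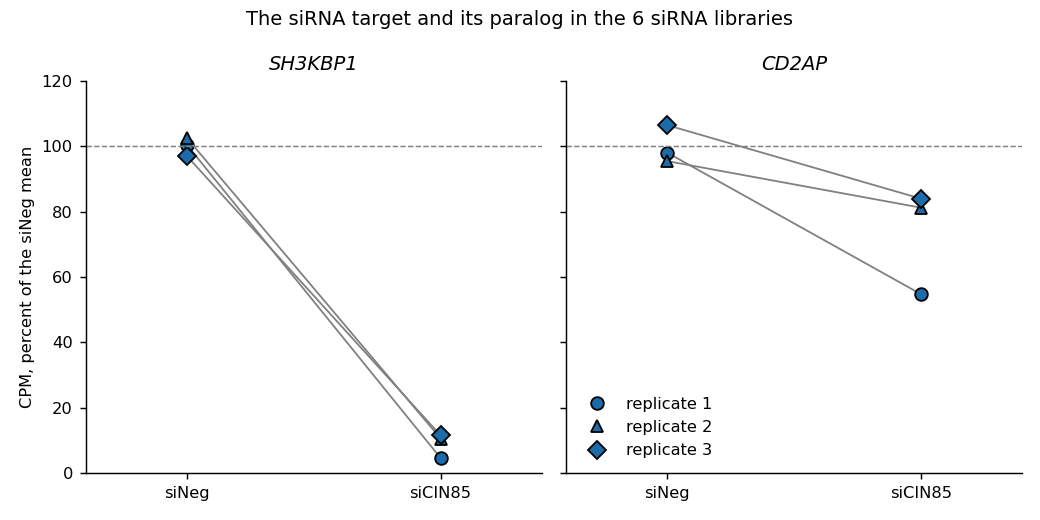
SH3KBP1 (left) and CD2AP (right) in the 6 siRNA libraries, as CPM in percent of the siNeg mean (vertical axis), with lines joining libraries of the same replicate number. SH3KBP1 ends at 4.56% to 11.5% and CD2AP at 54.7% to 84.0%, with replicate 1 lowest in both.

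Over all 10 genes, the plasmid and the siRNAs were compared with the rest of the transcriptome. In upCIN85 against Mock, 2 of the 10 genes passed the edgeR threshold, CBL and ARAP1, both lower, where 1.23% of all genes tested passed, 0.439% higher and 0.789% lower. The study already names both as changed in these libraries, and the 10 were chosen with earlier results known. This count against all genes is therefore not independent evidence. In siCIN85 against siNeg, only SH3KBP1 itself passed, and it was lower, where 1.04% of all genes passed, 0.59% higher and 0.454% lower. Once siRNA libraries were blocked by number, 3 of the 10 passed, SH3KBP1, CD2AP and UBASH3B, beside 3.42% of all genes. At an unadjusted P below 0.05 there were 5 of the 10 genes in each comparison, beside 14.5% of all genes for the plasmid and 15.7% for the siRNAs. The libraries of a group pair did not overlap for 5 of the 10 genes under the plasmid, 1 higher and 4 lower, where 20.7% of all genes did not overlap, 9.74% higher and 11% lower. Under the siRNAs they did not overlap for 6 of the 10, 4 higher and 2 lower, beside 20.2% of all genes, 9.91% higher and 10.2% lower. SH3KBP1, the target of the siRNAs, is included in each of these siRNA counts, and its fall was set by the design. The median log2FC of the 10 was -0.10 under the plasmid and 0.11 under the siRNAs, beside 0.01 and -0.01 over all genes.

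**Figure D3:**
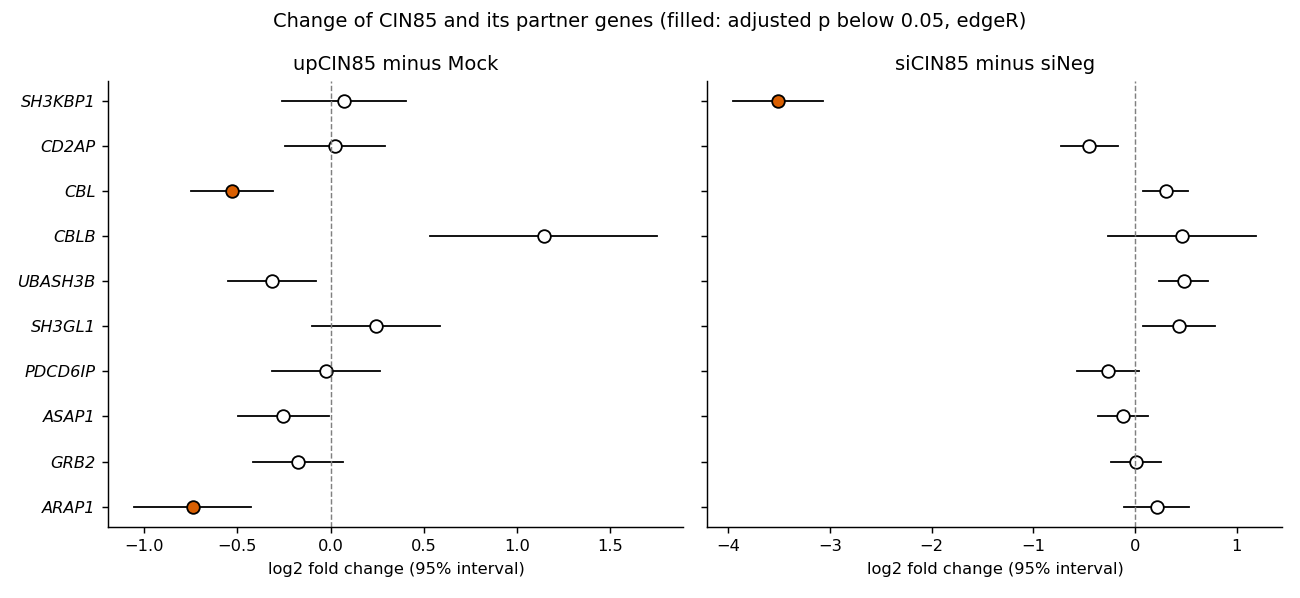
log2FC of each of the 10 genes with its 95% interval (horizontal axis) in upCIN85 against Mock (left) and siCIN85 against siNeg (right), with filled points for adjusted P below 0.05 in edgeR. CBL and ARAP1 are filled on the left at -0.53 and -0.74, and SH3KBP1 alone is filled on the right at -3.51.

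The ubiquitin ligases came next. CBL (ENSG00000110395, chr11:119206276-119313926, plus strand), the ligase that marks activated receptor kinases for degradation, was lower in the libraries labelled upCIN85. Mock held 148, 175 and 152 CPM, and upCIN85 held 106, 120.3 and 103 CPM. All 3 upCIN85 libraries lay below all Mock libraries. CBL fell by 0.53 on the log2 scale (SE 0.10, edgeR adjusted P = 0.0204), a change of -30.8%.

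In the siRNA libraries CBL stood the other way. It held 149, 154 and 131 CPM in siNeg and 183, 182.5 and 169.5 CPM in siCIN85, with no overlap. The log2FC was 0.30 (SE 0.11, 95% interval from 0.08 to 0.52, edgeR adjusted P = 0.171), which did not pass. The difference between both changes of CBL was itself past the threshold, at 0.83 (SE 0.15, 95% interval from 0.52 to 1.15, edgeR adjusted P = 0.0122). It was just short of the threshold without Mock replicate 2 (0.76, edgeR adjusted P = 0.0514) and passed in the other 17 of 18 alternatives. The study names CBL and ARAP1 among genes changed in these same libraries, so their calls here are not independent evidence.

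The CBL call under the plasmid held without Mock replicate 1 or upCIN85 replicate 2, but not without any of the other 4 libraries. Without Mock replicate 2, Mock replicate 3, upCIN85 replicate 1 or upCIN85 replicate 3, its edgeR adjusted P was 0.129, 0.0592, 0.0656 and 0.135. Its log2FC stayed between -0.60 and -0.46 over all alternatives.

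CBL shares 509 exon bases with MCAM, a cell adhesion gene on the opposite strand, and the strand setting of the counting is not given in the sources used here. MCAM averaged 56.7 ± 9.43 CPM in Mock and 29.6 ± 2.38 in upCIN85, a log2FC of -0.94 (SE 0.19, edgeR adjusted P = 0.0227). In siNeg and siCIN85 it averaged 76.8 ± 17.0 and 45.2 ± 10.8 CPM, a log2FC of -0.77 (SE 0.19, edgeR adjusted P = 0.0603; 0.00647 with the replicate block). MCAM was thus lower than its control in both comparisons, whereas CBL was lower in one and higher in the other. The part of reads from the shared stretch in the CBL values was not tested.

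CBLB (ENSG00000114423, chr3:105655461-105869552, minus strand), a close relative of CBL with the same ligase activity, was near the lower limit of counting. Mock libraries held 11, 14 and 9 counts and upCIN85 libraries 30, 24 and 25, or 2.01 ± 0.403 and 4.47 ± 0.689 CPM (SD, n = 3). Each upCIN85 library was above each Mock library, opposite in side to CBL. The log2FC was 1.14 (SE 0.29, 95% interval from 0.53 to 1.75, edgeR adjusted P = 0.0599), just short of the threshold. With the siRNA libraries blocked by replicate number, CBLB passed (1.14, edgeR adjusted P = 0.0362). That block leaves the Mock and upCIN85 libraries as they were, and the log2FC did not change, so the pass is no further evidence of a rise. In siNeg CBLB had 9, 8 and 8 counts and in siCIN85 11, 9 and 13, with a log2FC of 0.47 (SE 0.34, edgeR adjusted P = 0.559). CBLC, the third ligase of the family, has no entry in the count table.

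UBASH3B (ENSG00000154127, chr11:122655675-122814473, plus strand), also called STS-1, is a phosphatase that binds CBL and ubiquitin and restrains receptor degradation. It showed the same pattern of sides as CBL. Mock libraries held 95, 92.2 and 84.0 CPM, and upCIN85 libraries 69.1, 80.4 and 68.5 CPM, with no overlap. The log2FC was -0.31 (SE 0.11, edgeR adjusted P = 0.179). The siNeg libraries held 80.0, 67.9 and 79.7 CPM, and the siCIN85 libraries 102, 100.3 and 115 CPM, again with no overlap. The log2FC was 0.48 (SE 0.11, 95% interval from 0.24 to 0.72, edgeR adjusted P = 0.0549), and with the replicate block UBASH3B passed the threshold (0.48, edgeR adjusted P = 0.0239). DESeq2 on the same libraries gave 0.47 (adjusted P = 0.0126).

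The difference between the changes of UBASH3B was 0.79 (SE 0.16, 95% interval from 0.46 to 1.13, edgeR adjusted P = 0.0283). It was no longer past the threshold when Mock replicate 1 or 2, upCIN85 replicate 1 or 3, siNeg replicate 2, or siCIN85 replicate 1 or 3 was left out, with adjusted P from 0.0552 to 0.0908. UBASH3B was also the one gene of the 10 whose level in siNeg against Mock had an unadjusted P below 0.05, with a log2FC of -0.25 (SE 0.11, edgeR adjusted P = 0.375). UBASH3A, its lymphoid relative, has no entry in the count table.

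Of the ArfGAPs, which switch off the small GTPases of membrane traffic, ARAP1 moved and ASAP1 did not pass. ARAP1 (ENSG00000186635, chr11:72685069-72793599, minus strand) takes part in the endosomal traffic of the EGF receptor. Mock libraries held 33.3, 35.5 and 37.9 CPM, and upCIN85 libraries 21.5, 25.3 and 17.0 CPM. All 3 upCIN85 libraries lay below all Mock libraries, and replicate 3 was lowest. ARAP1 fell by 0.74 on the log2 scale (SE 0.15, 95% interval from -1.05 to -0.43, edgeR adjusted P = 0.0227), a change of -40.1%.

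As for CBL, the call did not hold without Mock replicate 2 or 3, or without upCIN85 replicate 1 or 3, with an edgeR adjusted P between 0.0653 and 0.135. In siNeg ARAP1 held 27.2, 29.6 and 33.1 CPM and in siCIN85 32.8, 34.7 and 36.7 CPM, which overlapped narrowly. The log2FC there was 0.21 (SE 0.15, edgeR adjusted P = 0.522). The difference between both changes was 0.95 (SE 0.21, edgeR adjusted P = 0.0419). That difference passed without upCIN85 replicate 2, and did not pass when any other single library was left out, with adjusted P from 0.0533 to 0.117. ARAP1 shares 725 exon bases on the same strand with STARD10, which had 84 counts in all 12 libraries against 1731 for ARAP1.

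ASAP1 (ENSG00000153317, chr8:130052104-130443660, minus strand), an ArfGAP of focal adhesions that binds CIN85, averaged 177 ± 12 CPM in Mock and 149 ± 13.7 in upCIN85. Its libraries did not overlap, but the log2FC of -0.26 (SE 0.12, edgeR adjusted P = 0.319) did not pass. In siNeg and siCIN85 the averages were 156 ± 21.7 and 144 ± 14.5 CPM, with a log2FC of -0.12 (SE 0.12, edgeR adjusted P = 0.667) and overlapping libraries.

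GRB2 (ENSG00000177885, chr17:75318076-75405709, minus strand), the adaptor that brings CBL and SOS to phosphorylated receptors, stayed within the spread in both comparisons. It averaged 169 ± 12.9 CPM in Mock and 149.9 ± 14.8 in upCIN85, a log2FC of -0.17 (SE 0.11, 95% interval from -0.42 to 0.07, edgeR adjusted P = 0.522). In siNeg and siCIN85 it averaged 161 ± 11.6 and 162 ± 22.8 CPM, a log2FC of 0.01 (SE 0.12, 95% interval from -0.24 to 0.26, edgeR adjusted P = 0.978).

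SH3GL1 and PDCD6IP act on the membrane. SH3GL1 (ENSG00000141985, chr19:4360370-4400547, minus strand), an endophilin that CIN85 brings to CBL, held 49.0, 50.8 and 51.8 CPM in siNeg and 78.9, 57.8 and 67.3 CPM in siCIN85. Each siCIN85 library was above each siNeg library, with replicate 1 highest. The log2FC was 0.43 (SE 0.17, 95% interval from 0.08 to 0.78, edgeR adjusted P = 0.222), not past the threshold. In Mock and upCIN85 the averages were 51.4 ± 8.76 and 60.9 ± 13.0 CPM, and the libraries overlapped (log2FC 0.24, SE 0.16, edgeR adjusted P = 0.526).

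PDCD6IP (ENSG00000170248, chr3:33798352-33869707, plus strand), also called ALIX, joins CIN85 to the ESCRT machinery that sorts receptors at the endosome. It averaged 82.7 ± 13.3 CPM in siNeg and 68.9 ± 11.1 in siCIN85, a log2FC of -0.27 (SE 0.14, edgeR adjusted P = 0.378). In Mock and upCIN85 it averaged 98.9 ± 2.40 and 97.2 ± 13.0 CPM, a log2FC of -0.03 (SE 0.14, edgeR adjusted P = 0.956) whose sign turned without upCIN85 replicate 2. PDCD6IP has a copied gene, PDCD6IPP2, with 1809 counts in the 12 libraries against 5154, so the split of reads between them is uncertain. PDCD6IPP2 had a log2FC of -0.01 under the plasmid and 0.17 under the siRNAs (edgeR adjusted P = 0.988 and 0.572).

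Set side by side, 4 of the 10 genes differed between the comparisons by the test of the difference itself, where 0.973% of all genes did, 0.686% with a higher and 0.287% with a lower value under the siRNAs. They were SH3KBP1, CBL, UBASH3B and ARAP1. The siRNAs target SH3KBP1, so its difference was set by the design. CBL, UBASH3B and ARAP1 lay below Mock in each upCIN85 library. Each siCIN85 library lay above siNeg for CBL and UBASH3B, whereas the ARAP1 libraries overlapped there. For CBLB, SH3GL1, PDCD6IP, ASAP1, GRB2 and CD2AP the test of the difference did not pass, with edgeR adjusted P between 0.240 and 0.775. The 95% interval of that difference reached from -1.64 to 0.28 for CBLB, so a change of either side is not resolved for this low gene.

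**Figure D4:**
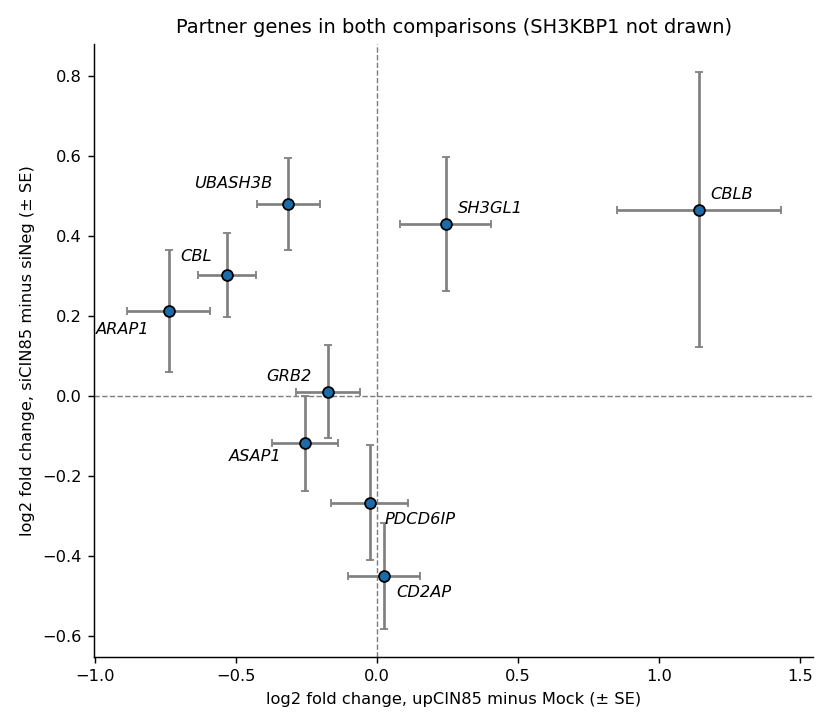
log2FC ± SE of the 9 partner genes in upCIN85 against Mock (horizontal axis) and in siCIN85 against siNeg (vertical axis), with SH3KBP1 left out because its -3.51 would stretch the axis. CBL, UBASH3B and ARAP1 lie left of 0 and above 0, and CD2AP lies below 0 on the vertical axis at -0.45.

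The controls of both experiments were set against each other so that the levels of the 4 groups could be ordered. None of the 10 genes passed in siNeg against Mock by edgeR (0 of 10, adjusted P from 0.375 to 0.969, beside 0.526% of all genes, 0.415% higher and 0.112% lower) or by DESeq2 (0 of 10), and 1 of 10 had an unadjusted P below 0.05. UBASH3B, PDCD6IP and ARAP1 were lower in each siNeg library than in each Mock library, with log2FC of -0.25, -0.26 and -0.25. Non-overlap was found for 19.4% of all genes in this comparison, 9.48% higher and 9.94% lower. Plasmid against siRNA delivery and any other difference between these experiments cannot be told apart, and depth moved with them, since the 6 vector libraries held more counts than the 6 siRNA libraries.

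The rest of the pathway was read from 4 lists by role, which hold 83 genes present in the table, of which 77 were tested. In upCIN85 against Mock 1 of the 77 passed (1.3%), which is close to the 1.23% of all genes. In siCIN85 against siNeg 2 passed (2.6%, beside 1.04%), and 5 with the replicate block (3.42% of all genes). At an unadjusted P below 0.05 there were 6 of the 77 under the plasmid, beside 14.5% of all genes, and 20 under the siRNAs, beside 15.7%.

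Among 19 further partners of CIN85 or CD2AP tested, 4 had a log2FC above 0 and 15 below 0 under the plasmid, with a median of -0.12. Under the siRNAs 12 were above and 7 below, with a median of 0.08. ANLN, the actin-binding scaffold of the cleavage furrow and a CD2AP ligand, was the one that passed. It averaged 219 ± 38.6 CPM in siNeg and 139.7 ± 21.1 in siCIN85 and fell by 0.65 on the log2 scale (SE 0.13, edgeR adjusted P = 0.0253). The call of ANLN was lost when replicate 1 or 3 of siNeg, or replicate 1 of siCIN85, was left out (adjusted P = 0.0772, 0.0601 and 0.155), and in a fit of the 6 siRNA libraries alone (0.0820). The study names ANLN, PICALM, CLTB, PDGFRB and MCAM as changed in these libraries too. At the ends of the list, SH3GL2, a brain-type endophilin at 2.58 ± 0.908 CPM in Mock, had a log2FC of -1.11 (edgeR adjusted P = 0.242) and PIK3R1, a subunit of phosphoinositide 3-kinase, one of 0.28 (edgeR adjusted P = 0.477) under the plasmid. HIP1R, a clathrin and actin adaptor at 1.11 ± 0.855 CPM in siNeg, had a log2FC of 1.25 (edgeR adjusted P = 0.318) under the siRNAs, and 0.88 to 2.04 with 1 library left out.

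Of 25 genes of the clathrin coat and vesicle scission, 13 were above and 12 below 0 under the plasmid (median 0.03), and 18 above and 7 below under the siRNAs (median 0.11). PICALM, which binds clathrin and sets vesicle size, averaged 165 ± 15.4 CPM in Mock and 114 ± 12.1 in upCIN85 and fell by 0.54 on the log2 scale (SE 0.11, edgeR adjusted P = 0.0227). Its call was lost without Mock replicate 1 or 2 or upCIN85 replicate 1 or 3 (adjusted P from 0.0503 to 0.146). GAK, the kinase that uncoats clathrin vesicles, was highest under the plasmid with a log2FC of 0.36 (edgeR adjusted P = 0.102). Under the siRNAs the ends were CLTB, a clathrin light chain, at 0.53 (edgeR adjusted P = 0.0914, with a range from 0.0122 to 0.329 and 3 of 13 alternatives past the threshold) and AMPH, an amphiphysin, at -0.43 (edgeR adjusted P = 0.345).

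Of 24 endosomal sorting genes, 10 were above and 14 below 0 under the plasmid (median -0.03) and 13 above and 11 below under the siRNAs (median 0.01). RAB7A, the GTPase of late endosomes, was the member that passed. It averaged 304 ± 4.25 CPM in siNeg and 411 ± 45.9 in siCIN85, with a log2FC of 0.43 (SE 0.10, edgeR adjusted P = 0.0381). The call of RAB7A was lost without any one siNeg library and without siCIN85 replicate 1 or 3 (adjusted P from 0.0618 to 0.197), and in the fit of the siRNA libraries alone (0.0910). STAMBP, a deubiquitinase of the endosome, had the lowest value under the siRNAs at -0.54 (edgeR adjusted P = 0.0654; 0.0361 with the replicate block), and VPS37B, an ESCRT-I subunit, the highest at 0.53 (edgeR adjusted P = 0.177). Under the plasmid the ends were CHMP6 at -0.35 (edgeR adjusted P = 0.515) and VPS4A at 0.18 (edgeR adjusted P = 0.581), an ESCRT-III subunit and the ATPase that disassembles ESCRT-III.

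Of 9 receptor kinases that CBL is known to mark, none passed in edgeR in either comparison, while 0 of 9 under the plasmid and 3 of 9 under the siRNAs had an unadjusted P below 0.05, beside 14.5% and 15.7% of all genes. Their medians were -0.01 and 0.12. PDGFRB, the receptor of platelet-derived growth factor B, averaged 46.1 ± 6.36 CPM in siNeg and 25.5 ± 6.52 in siCIN85, with a log2FC of -0.86 (SE 0.23, edgeR adjusted P = 0.0833). With the replicate block PDGFRB passed (log2FC -0.87, edgeR adjusted P = 0.0342), and DESeq2 gave an adjusted P of 0.0176. KIT, the stem cell factor receptor, was highest in both comparisons with log2FC of 0.56 and 0.49 (edgeR adjusted P = 0.385 and 0.500), and FGFR2 was lowest under the plasmid at -0.66 (edgeR adjusted P = 0.417). With 1 library left out, KIT ranged from 0.24 to 0.98 under the siRNAs and FGFR2 from -0.91 to -0.35 under the plasmid. These are transcript levels and do not measure receptor protein.

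**Figure D5:**
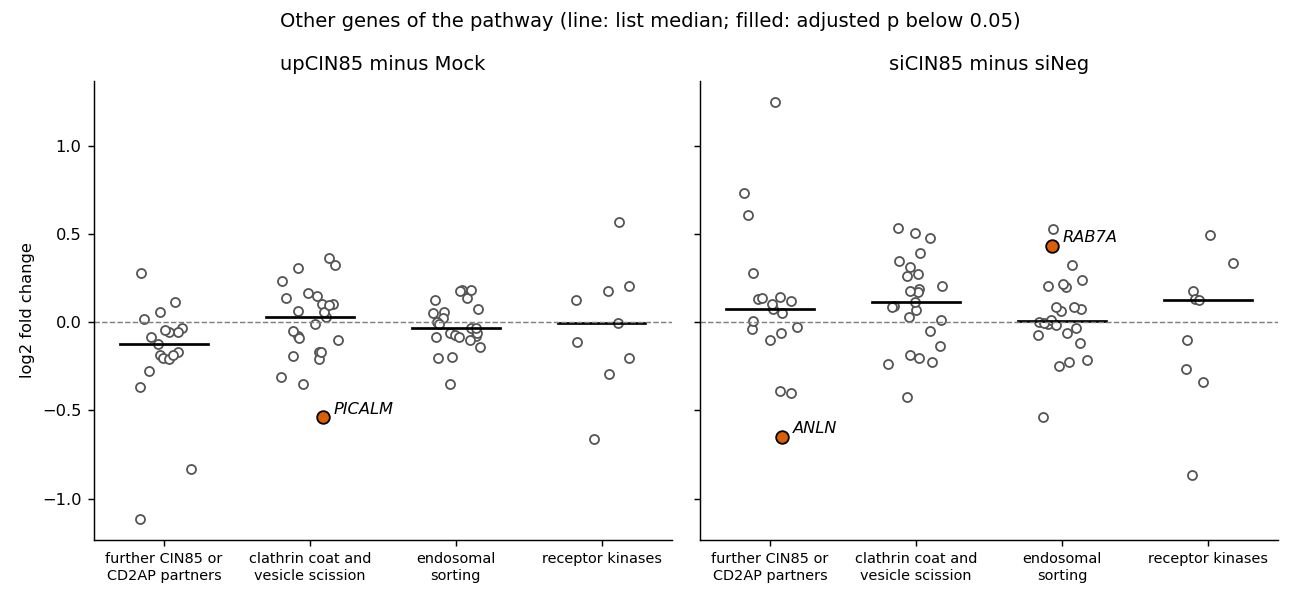
log2FC of each tested pathway gene (points) in 4 lists by role, in upCIN85 against Mock (left) and siCIN85 against siNeg (right), with a line for the list median and filled points for adjusted P below 0.05 in edgeR. PICALM is filled on the left, ANLN and RAB7A on the right, and the list medians stay between -0.12 and 0.12.

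The genes whose pattern over the 12 libraries was nearest to that of SH3KBP1 were sought among 11974 genes with a mean of at least 10 counts, by the root mean square difference of centred log2 CPM. They were OLFML2A, COL3A1, DENND1B, CYP1B1 and HSPB3, at 0.910, 0.918, 0.959, 0.965 and 0.975. None of them is a member of the lists above. The value for a gene that does not vary at all would be 1.52. The values were not scaled, so the measure takes in the size of the changes as well as their shape. Shape alone was not compared. The log2FC of the 5 genes in siCIN85 against siNeg lay between -1.75 and -1.22, a fall that follows from choosing them by likeness in these same libraries. In upCIN85 against Mock it lay between 0.33 and 0.88, where SH3KBP1 showed no rise. COL3A1 is a gene that the study itself reports as affected by CIN85.

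The labelled cell type was read from osteoblast lineage markers. COL1A1, SPARC and RUNX2 were present in each group, at group means of 428 to 1075, 427 to 643 and 12.8 to 32.3 CPM. IBSP had at most 1 count in a library, and SP7 and BGLAP have no entry in the table. The leukocyte markers PTPRC, CD3E and LYZ had at most 1 count, and the endothelial PECAM1 at most 6. The endothelial CDH5 had 2 to 36 counts, and the epithelial EPCAM and KRT8 stood at 28.6 to 52.1 and 37.5 to 59.2 CPM. MYH11, of smooth muscle, has no entry. Of the 3 tested markers of other cell types, CDH5, EPCAM and KRT8, none passed in either comparison in edgeR, and EPCAM under the plasmid had an unadjusted P below 0.05 (1 of 3). Of 6 osteoblast markers tested, 2 passed in upCIN85 against Mock, where 1.23% of all genes did. Both were higher, ALPL (log2FC 1.76, SE 0.39, edgeR adjusted P = 0.0340, at 5 to 23 counts) and COL1A2 (log2FC 1.35, SE 0.31, edgeR adjusted P = 0.0439), and the median of the 6 was 0.95. The COL1A2 libraries overlapped, at 41.9 to 84.8 CPM in Mock and 62.9 to 212 CPM in upCIN85. SPP1 did not pass but did not overlap, at 1.05 to 2.26 CPM in Mock and 2.80 to 12.7 CPM in upCIN85. At an unadjusted P below 0.05 there were 5 of the 6 under the plasmid, beside 14.5% of all genes. The study names COL1A2 and SPP1 among genes changed in these same libraries, so their values here are not independent evidence. SPARC was the one of the 6 with a value below 0, at 545 ± 36.6 CPM in Mock and 427 ± 36.6 in upCIN85 with no overlap (log2FC -0.35, SE 0.16, edgeR adjusted P = 0.330). None of the 6 passed in siCIN85 against siNeg, where 4 had an unadjusted P below 0.05, beside 15.7% of all genes, and the median was -0.33. ALPL and SPP1 had values above 0 there, and ALPL rested on 0 to 4 counts per library (log2FC 1.70, edgeR adjusted P = 0.282). These markers moved in the same libraries as CBL and ARAP1, and their part in those values was not tested.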

How the data were processed

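HOS RNA was sequenced as 12 libraries made with a 3′ end kit with unique molecular identifiers. The authors deposited raw counts, whole numbers of reads per Ensembl gene, without normalization. The submitters' processing notes name FastQC, cutadapt 4.3, STAR 2.7.3a, Picard 2.25.6, MultiQC 1.10.1, featureCounts, Subread 2.0 and the build GRCh38. The annotation release, the strand setting and any collapsing of identifiers are not given in the sources used here.

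Gene names, positions and exon overlaps were taken from GENCODE release 29 on GRCh38, where 95 identifiers had no match, and start windows from RefSeq on GRCh38.p14. In R 4.3.3, edgeR 4.0.16 filtered genes (filterByExpr, minimum count 10, minimum total 15), scaled by TMM and fitted all 12 libraries with a mean per group. Quasi-likelihood tests were two-sided, adjusted by Benjamini-Hochberg, with a threshold of 0.05. The SE was approximated from the log2FC and the F statistic. The tests were first tried on simulated counts. Replicates were checked for duplicated libraries, and none were found. Intervals are at 95%.

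Groups and replicate numbers follow the labels. Deviations from the group mean were correlated over 12542 genes between a siNeg and a siCIN85 library of one number (r = 0.353 for number 1, 0.269 for 2 and 0.446 for 3). The siRNA libraries were therefore also fitted in pairs, with the number as a replicate block. The main fit has no block, and P-values are from it unless another setting is named. For Mock and upCIN85 the values were 0.326, 0.227 and 0.0989, the last being the lowest of all, and these libraries were not taken as pairs. The alternatives were RLE scaling, 2 other filters, a fit of the compared libraries, the replicate block, DESeq2 1.42.0 and each library left out.

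The 10 genes and the lists were chosen with earlier results of these data known. Named are the 10 genes, pathway genes past the threshold, the highest and lowest log2FC of each list and comparison, the 5 genes nearest to SH3KBP1, and markers. MCAM and PDCD6IPP2 were added after the annotation was seen, as genes that overlap or copy one of the 10.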

Additional observations from a re-analysis of the deposited data

Results flagged for a closer look

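Each of 4 genes responded differently in the 2 experiments by the edgeR test of the difference, given as the log2FC in siCIN85 against siNeg minus the log2FC in upCIN85 against Mock. The difference was -3.58 for SH3KBP1 (adjusted P = 1.65e-06), which the siRNAs target. It was 0.83 for CBL (adjusted P = 0.0122, and 0.0514 without Mock replicate 2), 0.79 for UBASH3B (adjusted P = 0.0283) and 0.95 for ARAP1 (adjusted P = 0.0419). With 1 library left out, the adjusted P reached 0.0908 for UBASH3B and 0.117 for ARAP1. Of 18 alternatives, the difference passed in 17 for CBL, 11 for UBASH3B and 7 for ARAP1. CBL, UBASH3B and ARAP1 were below Mock in all 3 upCIN85 libraries. CBL and UBASH3B were above siNeg in all 3 siCIN85 libraries, and ARAP1 overlapped there. Groups of 3 were not examined for single outlying libraries.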

How the results depend on the processing

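RLE scaling changed no call. With no filter, the fit of the compared libraries alone, the replicate block in both experiments, the block in the knockdown only, and DESeq2, genes called were 637, 281, 1035, 545 and 311 for the plasmid (154 as reported) and 617, 50, 968, 429 and 298 for the siRNAs (131 as reported). The difference (122) gave 554 without the filter, 918 and 368 with the blocks and 269 in DESeq2, and siNeg against Mock (66) gave 376 without the filter and 183 in DESeq2. Leaving out 1 library gave 25 to 260, 9 to 362, 33 to 341 and 7 to 134. Of the 10 genes, 4 passed under the plasmid with the block in both experiments, beside 1035 of all 12542 genes. Under the siRNAs 3 of the 10 passed without the filter, beside 617 of 25141 genes, and 2 in DESeq2, beside 298. With the blocks 5 and 3 of the 10 passed, beside 968 and 429 of 12542 genes. With at least 10 counts in every library 2 of the 10 passed, where 10676 genes were tested. Leaving out 1 library gave 0 to 2 for the plasmid, 1 to 2 for the siRNAs and 1 to 4 for the difference. Pathway genes called under the plasmid were 2 without the filter, 3 and 2 with the blocks and 2 in DESeq2, and 0 to 2 with 1 library left out. Under the siRNAs they were 6, 11 and 5, and 5, with 0 in the compared libraries alone and 0 to 4 with 1 library left out.

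With 1 library left out, SH3KBP1 under the plasmid ranged from -0.0107 to 0.15 and CD2AP from -0.0190 to 0.0540. SH3KBP1 under the siRNAs ranged from -3.77 to -3.18 and passed throughout. CD2AP under the siRNAs was -0.47 and passed without the filter (edgeR adjusted P = 0.0237) and with the block in both experiments (0.0114) or the knockdown only (0.0334), and was -0.57 to -0.28 with 1 library left out. Signs of small values also turned with 1 library left out for PDCD6IP under the plasmid (-0.131 to 0.0658), GRB2 under the siRNAs (-0.0862 to 0.102, and -0.00666 without the filter), and CBLB (-0.0875 to 0.200) and SH3GL1 (-0.158 to 0.0724) in siNeg against Mock. The cause was not tested. With the block in both experiments, CBL (edgeR adjusted P = 0.0364) and SH3GL1 (0.0329) also passed under the siRNAs, and CBLB and UBASH3B under the plasmid. The block in the knockdown only changed neither CBL (0.113) nor SH3GL1 (0.173). The block could not be fitted for siNeg against Mock, and the fit of compared libraries was not made for the difference. Depth limits CBLB, with 8 to 30 counts per library.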
